A study of Mus musculus with 2 samples.

Results

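The genes described are the replication-dependent histone genes, taken as every protein-coding gene whose symbol starts with Hist1h, Hist2h, Hist3h or Hist4. In the GENCODE M21 annotation of mouse genome build mm10 the rule found 67 genes among 55536 annotated genes, of which 22028 were protein-coding. By histone type they were 6 genes for H1, 18 for H2a, 18 for H2b, 12 for H3 and 13 for H4. Another 3 genes with such symbols are annotated as pseudogenes and were left out. The RNA was from adrenal glands of B6CASTF1/J females, F1 hybrids of B6 and CAST mice, at 25 days of age, with no treatment and no engineered allele named in the labels. Total RNA was sequenced in 2 libraries that form 1 group, called replicate 1 and replicate 2, each made from 300 ng of RNA with ERCC spike-ins, which are synthetic RNAs added to the sample. The labels conflict on the animals: the tissue entries name separate females, while library text and donor do not differ, so the spread between the libraries may be technical. With 1 group there is no comparison between conditions, and the data describe levels and the match of the libraries.

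Histones H2A, H2B, H3 and H4 form the protein core around which DNA is wound, and H1 binds the linker DNA between cores. Replication-dependent genes supply these proteins during S phase, when the genome is copied, and their messenger RNAs are the best-known animal messages that end in a stem-loop in place of a poly(A) tail. The protein SLBP binds that stem-loop. Without a poly(A) tail, such messages are mostly missed by poly(A) selection, while total RNA libraries can hold them.

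The genes lie in 4 clusters named in their symbols. The Hist1 cluster on chromosome 13 held 54 members in 2 blocks, 23 genes between 21715763 and 22043676 and 31 genes between 23531050 and 23934851. The Hist2 cluster on chromosome 3 (96219865 to 96270132) held 10, the Hist3 cluster on chromosome 11 (58948920 to 58956830) held 2, and Hist4h4 stands alone on chromosome 6 (136801553 to 136804415). For 65 members the leading annotated transcript has 1 exon, and for Hist1h2bc and Hist1h2be it has 2.

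The 3′ ends are shown first, because they are what sets these messages apart. The histone stem-loop consensus, a stem of 6 base pairs around a loop of 4 bases that allows either pyrimidine or either purine in part of the stem, was searched on the sense strand of every annotated transcript. It was present in 46 of the 67 members (68.7%), against 106 of 55450 genes with a transcript sequence (0.191%). The lines below give the stem-loop of leading members of each type, with Hist1h4b for another H4 form, 5′ to 3′, with the 16 bases of the stem-loop in capitals.
Hist1h4h: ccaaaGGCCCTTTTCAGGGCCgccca
Hist1h4b: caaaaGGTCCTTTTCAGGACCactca
Hist2h2aa2: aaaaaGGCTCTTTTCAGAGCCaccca
Hist1h2bk: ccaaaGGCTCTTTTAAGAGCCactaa
Hist1h3b: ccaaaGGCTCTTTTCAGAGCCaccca
Hist1h1c: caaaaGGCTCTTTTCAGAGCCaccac
Among the members with a match there were 8 distinct stem-loops. The 12 H4 genes used 4 of them and the 34 genes of the other types used 4 others, with 0 in common. The form printed for Hist1h1c, Hist2h2aa2 and Hist1h3b was shared by 26 genes of types H1, H2a, H2b and H3, and that of Hist1h4h by 7 H4 genes. The stem-loop began 21 to 58 bases after the stop codon, with a median of 31.

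Annotated transcripts differed in where they end, which bears on every level given per length. In 23 members the model ended within 100 bases after the stem-loop, and in 23 it ran further, to 4884 bases after it in Hist1h1d. In 17 members the model ended at the stop codon or within 2 bases of it, so these models hold no stem-loop to match, and 4 had a longer 3′ end without a match. Members whose model ended within 100 bases of the stem-loop held 50.2% of the members' TPM in replicate 1 and 48.7% in replicate 2. TPM is a level per transcript length with the same total in each library. Those with models that ran further held 22.7% and 22.3%, and those ending at the stop codon 19.0% and 21.5%. In the second quantification, made from the reads without the alignments behind the gene table, members ending at the stop codon held 20.6% in replicate 1 and 12.1% in replicate 2, so that share differed between the libraries there.

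Members were measured at 1133 TPM in all in replicate 1 and 2017 TPM in replicate 2. Much of that difference is one of scale: nuclear protein-coding genes, leaving out Lars2, had a TPM sum of 206815 in the first and 338304 in the second library. Levels were therefore also expressed as coding TPM, in which those genes sum to 1000000. On that scale the members made up 0.548% of coding TPM in replicate 1 and 0.596% in replicate 2, a mean of 0.572% ± 0.0344 (SD, n = 2). Of the members, 59 (88.1%) reached 1 TPM in both libraries, beside 51.5% of all protein-coding genes.

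H4 had the highest summed level, 368 TPM in the first library and 668 in the second, a mean of 518 ± 212 (SD, n = 2). H2a followed at 249.55 and 479 TPM, then H2b at 240.2 and 410.2 TPM. H3 was at 169 and 272 TPM, and H1 was lowest at 106 and 187 TPM. The order H4, H2a, H2b, H3, H1 was the same in both libraries, while on the TPM scale the libraries' ranges of neighbouring types overlapped throughout. On the coding TPM scale the spread was smaller: H4 was at 1878 ± 138.5, H2a at 1311 ± 147, H2b at 1187 ± 36.3, H3 at 811 ± 7.80 and H1 at 533 ± 29.3. There the H2a range (1207 to 1415) overlapped that of H2b (1161 to 1213), so the spread of the libraries did not separate this pair. Within each library H2a was the higher, at 1.04 and 1.17 times H2b. The other neighbours did not overlap. H4 and H3 enter the nucleosome in equal number, yet H4 TPM was 2.18 times that of H3 in replicate 1 and 2.45 times in replicate 2. The same ratio was 1.83 and 1.53 in the second quantification. In that quantification H2a, at 1569 and 1610 coding TPM, stood above H4, at 1383 and 1159, so the order of the leading types depended on the quantification. H2b was at 958 and 842 coding TPM there, and H2a was 1.64 and 1.91 times as high.

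**Figure D1:**
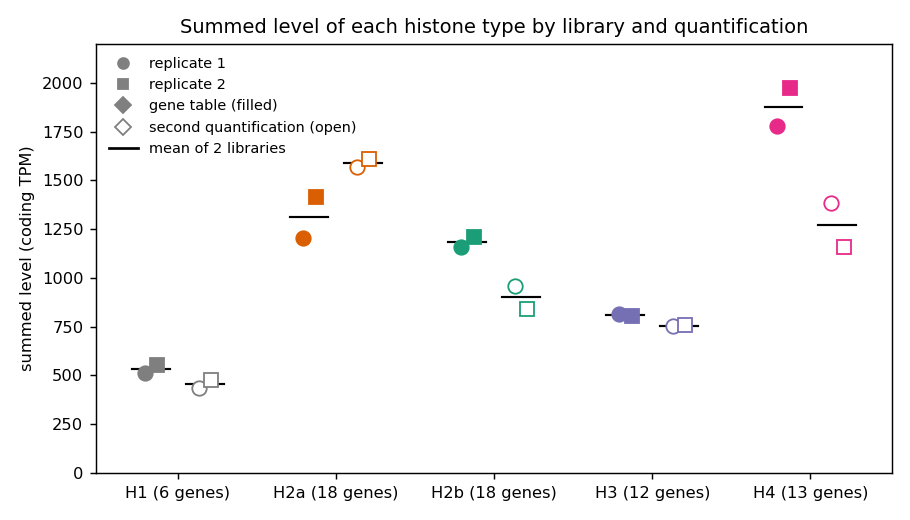
Summed coding TPM of each histone type (vertical axis, linear from 0) for replicate 1 (circles) and replicate 2 (squares), from the gene table (filled) and from the second quantification (open), with black lines at the mean of both libraries. In the gene table H4 was highest and H1 lowest, and in the second quantification H2a stood above H4.

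All 13 H4 genes encode 1 protein of 103 residues, written by 12 distinct coding sequences. All 13 were at or above 1 TPM in both libraries. Hist1h4h (chromosome 13, 23531050 to 23531519) led with 108 TPM and then 156 TPM (replicates 1 and 2, mean 132 ± 33.7, SD, n = 2), which was 29.4% and 23.3% of H4 TPM. Hist1h4m, with 58.6 and 117 TPM, and Hist1h4k, with 31.9 and 85.8 TPM, came next. Hist1h4d stood at 36.7 and 60.8 TPM. In the second quantification Hist1h4h also led, with 46.4% and 59.4% of H4 TPM. Hist1h4k was at 45.2 and 21.7 TPM there and Hist1h4d at 18.2 and 11.4 TPM, so the shares depended on the quantification. Hist4h4, alone on chromosome 6, was lowest with 2.85 and 5.29 TPM, on a model of 2863 bases that received 129 and 460.0 counts. The H4 protein was thus encoded by messages from all 13 copies at levels that spanned more than an order of magnitude, and from 3 chromosomes.

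The 18 H2a genes encode 9 proteins, the largest group being 9 genes that share 1 of them. In the gene table a single gene held close to the summed level of all other H2a genes. Hist2h2aa2 (chromosome 3, 96239749 to 96240276) was at 117 and 244 TPM (mean 180.5 ± 90.2, SD, n = 2), or 46.8% and 51.0% of H2a TPM, the highest level of any member in each library. Its neighbour Hist2h2aa1, with the same coding sequence on the opposite strand, was listed at 0 and 5.73 TPM. The second quantification gave the pair the opposite split: Hist2h2aa1 was at 159 and 517 TPM, while Hist2h2aa2 was at 31.7 TPM and listed at 0. As a pair they held 564 and 739 coding TPM in the gene table and 652 and 838 in the second quantification, so their sum was far more alike than either copy. Reads from the copies cannot be told apart over the shared sequence. Of the other leading H2a genes, Hist1h2ab was at 19.0 and 25.2 TPM and Hist1h2af at 22.2 and 20.9 TPM. The 9 genes that share a protein summed to 76.8 and 137 TPM in the gene table, below Hist2h2aa2 alone in both libraries. In the second quantification they summed to 179 and 321 TPM, above Hist2h2aa2. There they lay below the sum of Hist2h2aa1 and Hist2h2aa2, which was 190.3 and 517 TPM.

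The 18 H2b genes encode 11 proteins and were spread more evenly. Hist1h2bc (chromosome 13, 23684199 to 23692908) led with 47.7 and 63.5 TPM (mean 55.6 ± 11.2, SD, n = 2), 19.9% and 15.5% of H2b TPM. Its annotated transcript has 2 exons, and no stem-loop was matched in it. Hist2h2bb followed at 29.1 and 56.1 TPM, Hist1h2bk at 28.3 and 39.9 TPM, and Hist1h2bg at 22.3 and 42.9 TPM. Hist1h2be, whose span on chromosome 13 (23583670 to 23621124) overlaps Hist1h1e on the same strand, was at 3.90 and 6.18 TPM, and in the second quantification at 13.2 and 32.4 TPM. Of the 18 genes, 17 reached 1 TPM in both libraries.

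The 12 H3 genes encode 2 proteins of 136 residues that differ at 1 residue. The protein known as H3.1 comes from 4 genes (Hist1h3a, Hist1h3g, Hist1h3h and Hist1h3i) and H3.2 from the other 8. The H3.1 genes summed to 74.5 and 120.1 TPM, and the H3.2 genes to 94.3 and 152 TPM, so that H3.2 was 1.26 and 1.27 times as high. In the second quantification H3.2 was 2.20 and 1.86 times as high, the same direction with a larger size. Hist2h3b, on chromosome 3 (96268654 to 96269141), was the highest H3 gene by its mean, with 23.9 and 54.3 TPM (39.1 ± 21.5, SD, n = 2). Hist1h3i was at 27.7 and 40.3 TPM, Hist1h3h at 22.0 and 45.4 TPM, and Hist1h3b at 23.5 and 31.0 TPM. These leading genes overlapped each other in their ranges, and the highest share of the type held by any H3 gene in either library was 19.9%. In the second quantification Hist1h3b, with 25.7% and 17.9% of H3, led by its mean and Hist2h3b held 13.7% and 21.1%. Hist2h3c1 was lowest: it received 11.3 counts in replicate 1 and 0 in replicate 2. By counting error alone a count of 0 allows up to 3 counts. Its coding sequence is that of Hist2h3c2, however, and the deposited error from splitting shared reads was 11.6 and 9.89 counts (SD). That error was larger than the limit of 3 counts, so its level is not bounded by that limit.

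The 6 H1 genes encode 6 proteins and share fewer reads. Hist1h1c (chromosome 13, 23738808 to 23740367) received 1248 counts in replicate 1 and 4782 in replicate 2, the most of any member, with a deposited posterior SD, the error from splitting shared reads, of 0.3% and 0.2% of the count. At 52.2 and 104 TPM (mean 78.1 ± 36.7, SD, n = 2) it held 49.3% and 55.6% of H1 TPM. Hist1h1e was at 21.4 and 38.7 TPM, Hist1h1a at 17.69 and 25.2 TPM, and Hist1h1b at 12.7 and 16.1 TPM. The levels of these 4 genes kept 1 order in both libraries. Hist1h1d shows the effect of a long model: it received 240.1 and 718 counts, more than Hist1h1b with 134 and 326, but on 7425 bases its level was 2.00 and 3.12 TPM.

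**Figure D2:**
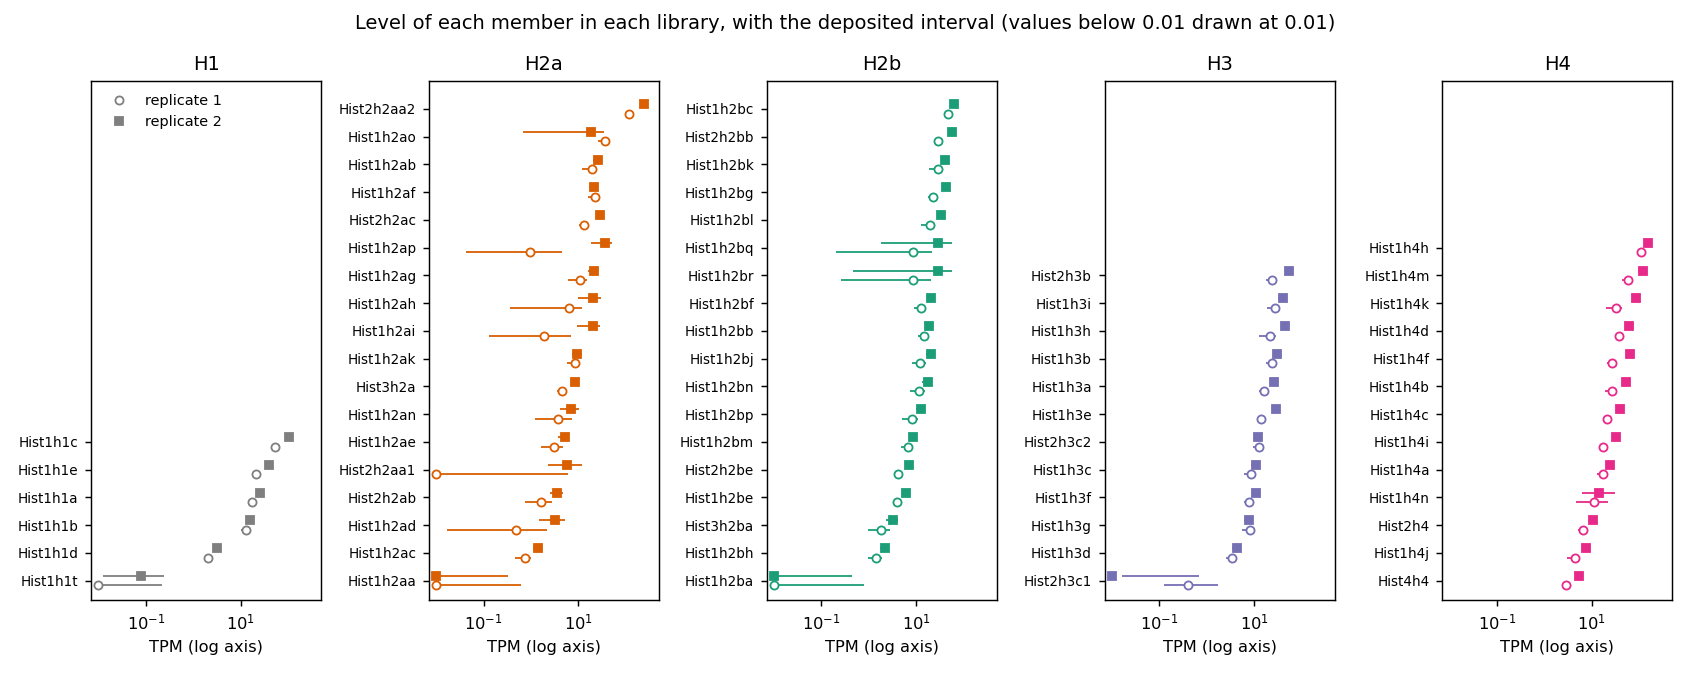
TPM of every member (horizontal log axis) in replicate 1 (open circles) and replicate 2 (filled squares), grouped by histone type and sorted by mean, with lines for the interval deposited with each TPM, whose level is not stated. Long lines mark copies that share reads, such as Hist1h2ap, Hist1h2bq and Hist1h2br, or counts near 0, such as Hist1h1t and Hist1h2aa. Values of 0 lie at the left edge, among them Hist1h2aa and Hist1h2ba in both libraries and Hist2h2aa1 in replicate 1.

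The members of the testis list, known for expression in male germ cells, marked the lower end. Hist1h2aa and Hist1h2ba had 0 counts in both libraries, and Hist1h1t had 0 counts in replicate 1 and 2 in replicate 2. A count of 0 allows up to 3 counts, a limit for counting error only, since reads without identifiers may be copies of 1 molecule. The H2a/H2b pair Hist1h2aa and Hist1h2ba is divergent, with start sites 305 bases apart, so both sides of that shared promoter region were without reads.

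H2a and H2b genes often start back to back. Among the members, 12 such pairs on opposite strands had annotated starts 175 to 305 bases apart. In each of the 11 pairs with reads, the H2b level was set against the level of its H2a partner in both libraries and both quantifications, which gave 4 estimates a pair. H2b was higher in all 4 estimates in 2 pairs and lower in all 4 in 1 pair, and in 8 pairs the direction differed among them.

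The widest difference was in the pair Hist1h2ac and Hist1h2bc. Hist1h2ac was at 0.73 and 1.40 TPM, from 28.6 and 105 counts, and Hist1h2bc was at 47.7 and 63.5 TPM, from 826 and 2110.0 counts. The H2b gene was thus 65.4-fold and 45.3-fold higher per length, 28.9-fold and 20.1-fold higher in counts, and 81.2-fold and 48.9-fold higher in the second quantification. Hist1h2an and Hist1h2bp were closer, with Hist1h2bp 2.17-fold and 1.82-fold higher. In the third pair, Hist2h2ac was at 13.2 and 28.6 TPM and Hist2h2be at 4.07 and 7.14 TPM. There the count pointed the other way, with 168 and 566 for Hist2h2be against 91.0 and 379 for Hist2h2ac, on a model of 2620 bases against 520 bases.

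The regions between the starts of these 3 pairs are printed because their direction did not depend on the quantification. They are read on the plus strand of GRCm38.p6, the assembly behind mm10, from RefSeq promoter windows, and run from the H2a start on the left to the H2b start on the right. Capitals mark matches, on either strand, to the motif CCAAT, to the TATA box searched as TATAAA, and to the octamer motif ATGCAAAT. The positions are chr13:23683949-23684198, chr13:21787219-21787460 and chr3:96220881-96221118.
Hist1h2ac/Hist1h2bc: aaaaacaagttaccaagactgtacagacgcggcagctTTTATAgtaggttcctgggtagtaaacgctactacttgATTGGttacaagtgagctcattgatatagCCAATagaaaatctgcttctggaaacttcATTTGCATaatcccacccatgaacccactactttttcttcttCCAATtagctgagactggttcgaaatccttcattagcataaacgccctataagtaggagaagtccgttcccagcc
Hist1h2an/Hist1h2bp: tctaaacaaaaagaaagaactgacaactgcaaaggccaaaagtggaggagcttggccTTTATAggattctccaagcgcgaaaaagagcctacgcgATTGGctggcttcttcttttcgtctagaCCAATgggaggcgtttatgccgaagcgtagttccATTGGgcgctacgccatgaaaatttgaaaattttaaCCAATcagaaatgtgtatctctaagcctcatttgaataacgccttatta
Hist2h2ac/Hist2h2be: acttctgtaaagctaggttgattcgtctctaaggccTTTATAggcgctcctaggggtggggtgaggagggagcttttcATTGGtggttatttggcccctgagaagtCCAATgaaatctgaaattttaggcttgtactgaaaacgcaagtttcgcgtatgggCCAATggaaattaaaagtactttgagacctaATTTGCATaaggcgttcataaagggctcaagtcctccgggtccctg
CCAAT was found 3, 4 and 3 times in these regions, TATAAA once in each, and ATGCAAAT once in the first and the last. All 12 regions between divergent starts held CCAAT at least 2 times, 7 held TATAAA and 5 held ATGCAAAT. The pair without reads, Hist1h2aa and Hist1h2ba, was among the 5, so a match in the window did not separate pairs with reads from the pair without. Some regions were covered in part, so these counts are minimums. Covered were 275 of 305 bases for Hist1h2aa/Hist1h2ba and 252 of 267 for Hist1h2ao/Hist1h2bq. For Hist1h2ag/Hist1h2bj it was 266 of 269, and for Hist1h2ah/Hist1h2bk 299 of 301.

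**Figure D3:**
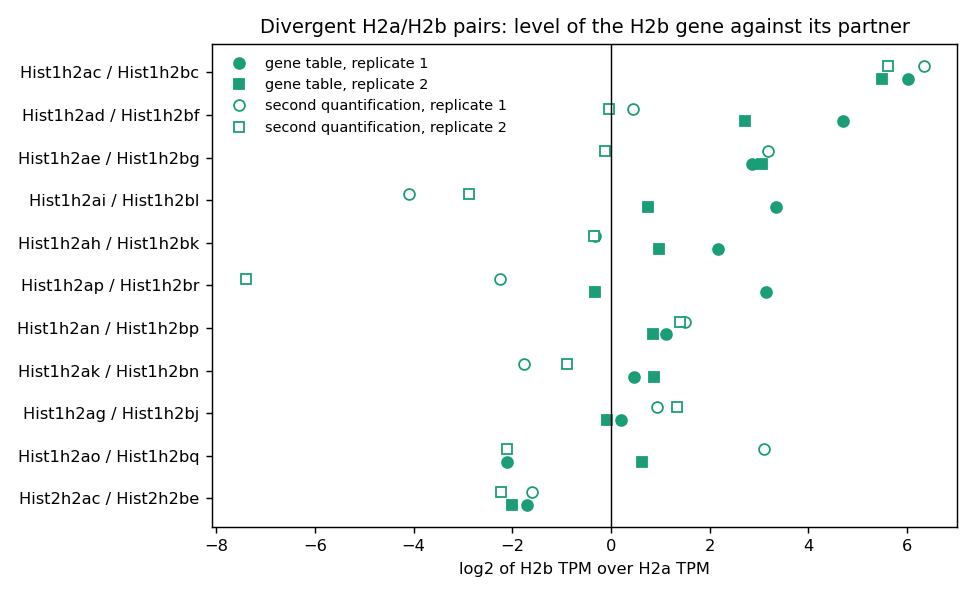
Log2 of the H2b level over the H2a level, in TPM, for the 11 divergent pairs with reads (horizontal axis, with 0 at equal levels), for replicate 1 (circles) and replicate 2 (squares) in the gene table (filled) and the second quantification (open). Hist1h2ac/Hist1h2bc lies furthest to the right in all 4 estimates, between 5.50 and 6.34.

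The same motifs were counted, on both strands, in RefSeq windows from 250 bases before to 50 bases after each start, of which 63 matched 62 of the 67 members. CCAAT was found in 54 of these 63 windows (85.7%), against 37.4% of 32851 windows in all. By type it was in every matched window of H1, H2a, H2b and H3 members and in 3 of 12 H4 windows (25.0%). TATAAA was in 35 windows (55.6%), against 13.6% of all windows, and in 8 of the 12 H4 windows. ATGCAAAT, the octamer motif, was in 7 of 18 H2a windows and 7 of 17 H2b windows, in 0 windows of the other types, and in 1.74% of all windows. The windows of back-to-back H2a and H2b genes overlap, so the same match can be counted for both types. This holds for CCAAT and TATAAA as well, and the H2a and H2b counts are not independent. Of the motifs searched, CCAAT was the one whose share in H4 windows lay apart from every other type, while TATAAA was in 66.7% of H4 windows and of H1 windows alike. These are matches of letters in a window and were not tested as binding sites.

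The libraries were compared by a log2 ratio, replicate 2 over replicate 1. Expected counts were TMM-scaled with a prior of 1 count, where TMM is a scaling that sets most genes to no change. The summed counts of H2a gave 0.21 (exact Clopper-Pearson interval 0.13 to 0.29 at 95%, counting error only), those of H1 0.12 (0.06 to 0.19) and those of H4 0.07 (0.01 to 0.13). H2b gave -0.07 (-0.14 to 0.00) and H3 -0.13 (-0.22 to -0.04). All 5 lay within 0.21 of no change on a scale where the median of 11542 tested genes was 0.03, and 1 library on each side leaves no replicate check of the difference. A change of scaling moves every gene alike: by the spike-ins H2b gave 0.06 and H3 0.00 with the median of all genes at 0.16, and by total counts all 5 types lay between 0.76 and 1.10 with that median at 0.91. With these scalings, too, H2b and H3 lay below the median of all genes, and DESeq2's size factors gave -0.07 and -0.13 as TMM did.

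Of the 67 members, 50 had a mean count of at least 100. Their median log2 ratio was 0.03, that of all tested genes also 0.03, and 42 of the 50 (84.0%) lay within 0.5 of 0, beside 91.5% of all tested genes. At 2-fold or more, 1 of 50 members was higher in replicate 2, where the share over all tested genes was 0.39%, and 1 was lower, where it was 0.927%. The higher one was Hist1h2ap, with 5.87 counts in replicate 1 and 429 in replicate 2 (log2 ratio 4.40). The lower one was Hist1h2ao, with 227 and 224 counts (log2 ratio -1.70). Both lie on chromosome 13, Hist1h2ao at 21810465 to 21810944 and Hist1h2ap at 21833026 to 21833507, and have the same coding sequence. The deposited posterior SD of their counts reached 132.5% for Hist1h2ap in replicate 1 and 48.5% for Hist1h2ao in replicate 2. Summed, the 2 genes had 233 and 653 counts, a log2 ratio of -0.20 (-0.41 to 0.03). In the gene table, with all copies of identical coding sequence summed, 0 members were 2-fold or more apart in either direction. In the second quantification 1 of 35 members was 2-fold higher and 3 were lower, against 0.413% and 0.809% of all genes. Hist1h2ae (2.86) was the higher one, and Hist1h4d (-1.87), Hist1h4a (-1.10) and Hist1h2ai (-1.96) the lower ones. None of these has a coding sequence identical to that of another member. No p-value was computed for these ratios.

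**Figure D4:**
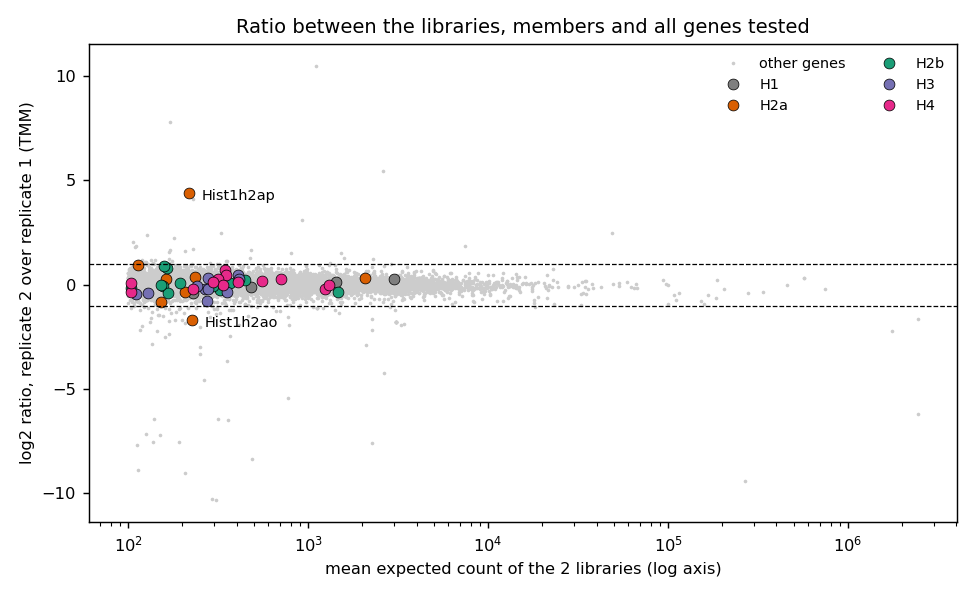
Log2 ratio between the libraries (vertical axis) against the mean expected count (horizontal log axis, from 100), members in colour by type and other genes in grey, with dashed lines at 2-fold. Hist1h2ap at 4.40 and Hist1h2ao at -1.70 are the members outside the dashed lines.

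Copies that share sequence set the precision of single genes. Of the 62 members with counts above 0 in both libraries, 23 had a posterior SD under 5% of the count in both libraries and 10 had 20% or more in at least 1 library. Hist1h2bq and Hist1h2br, of identical coding sequence, had 276.85 and 270.07 counts in replicate 2 with posterior SDs of 53.4% and 55.6%. Summed, this pair had 95.4 counts in replicate 1 and 547 in replicate 2, a log2 ratio of 0.83 (0.53 to 1.17), while the second quantification gave -2.32, the opposite direction. At the other end, Hist1h1a, Hist1h1b, Hist2h2be, Hist2h4 and Hist4h4 had posterior SDs of 0.0% in both libraries. That SD belongs to the gene table and does not cover the difference between quantifications. Hist2h4 had 159 and 512 counts in the gene table and 94 and 197 in the second quantification. Hist4h4 had 129 and 460 against 77.7 and 189. The counts of Hist1h1a, Hist1h1b and Hist2h2be were closer, such as 168 and 566 against 174 and 550 for Hist2h2be.

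The second quantification assigned fewer reads to the members, most of all to H4. Its H4 counts were 53.5% of those of the gene table in replicate 1 and 33.8% in replicate 2, while its H1 counts were 98.7% and 93.8%. Over all nuclear protein-coding genes without Lars2 its counts were 111% and 109%. The log2 ratio of H4 between the libraries was -0.55 there, the opposite direction to the gene table. Hist1h4d, with a posterior SD of 0.2% and 0.1% of the count in the gene table, also had fewer counts in the second quantification. It had 624 and 1986 counts in the gene table and 249 and 211 in the second quantification. Hist1h4h, the leading H4 gene, had 659 and 1820.06 counts in the gene table and 542 and 1491 in the second quantification.

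Of the 63 members at a mean of 1 TPM or more in either quantification, 7 (11.1%) were 2-fold or more higher and 15 (23.8%) 2-fold or more lower in the second by mean coding TPM. Over 12848 nuclear protein-coding genes without Lars2, chosen by the same minimum, these shares were 1.77% and 0.786%. In TPM itself, whose scale differs between the quantifications, 18 members were higher and 10 lower. The widest on that scale was Hist2h2aa1 (log2 6.88), followed by Hist1h2ad (5.07), whose TPM was 0.49 and 3.15 in the gene table and 30.9 and 91.2 in the second quantification. Hist1h2ao (-4.10), Hist1h4f (-3.86) and Hist2h2aa2 (-3.51) were the widest in the other direction. Hist1h4f was at 26.7 and 62.4 TPM in the gene table and at 2.29 and 3.85 TPM in the second quantification. Hist1h2bl was lower in the second quantification (log2 -2.45), and Hist1h2ae (2.39) and Hist1h2ai (2.34) were higher. Levels of single copies therefore depend on the quantification.

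**Figure D5:**
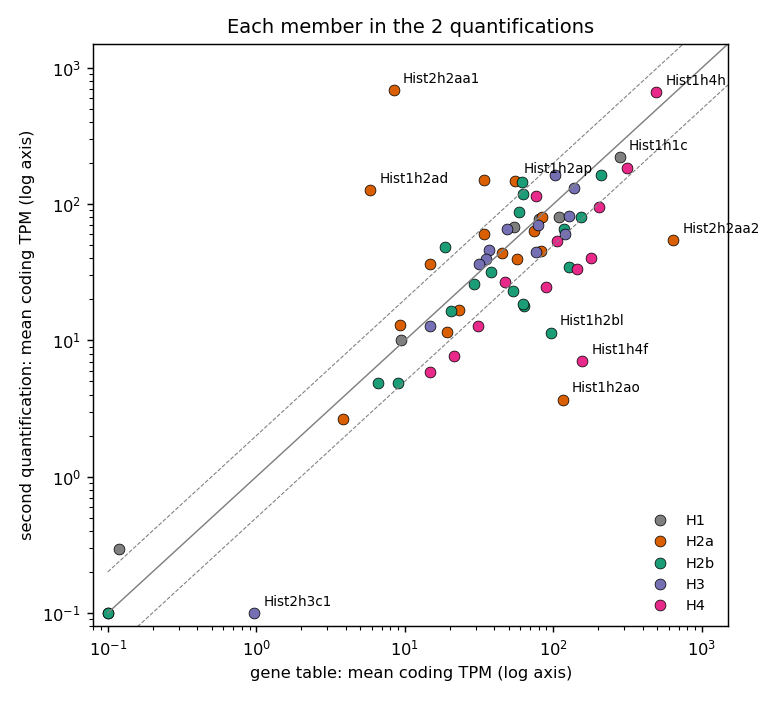
Mean coding TPM of each member over both libraries in the gene table (horizontal log axis) and in the second quantification (vertical log axis), coloured by type, with a grey line at equal values, dashed lines at 2-fold and values under 0.1 drawn at 0.1. Hist2h2aa1 and Hist1h2ad lie far above the line, and Hist2h2aa2, Hist1h2ao, Hist1h4f and Hist1h2bl far below it.

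Replacement histone genes, which are expressed outside S phase and mostly carry poly(A) tails, were read beside the members. All 11 reached 1 TPM in both libraries. H3f3a and H3f3b, which encode H3.3, summed to 211 and 399 TPM, 1.25 and 1.47 times the summed level of the replication-dependent H3 genes. In the second quantification this was 1.42 and 1.72 times, the same direction. The linker genes H1f0 and H1fx together had 0.346 and 0.416 times the level of the H1 members, so there the replication-dependent genes were higher. Of the H2A genes of that list H2afj, at 41.2 and 65.9 TPM, stood beside H2afz, at 35.6 and 65.7 TPM, and in the second quantification H2afz was the higher of them, at 102.4 and 113 TPM against 22.4 and 42.3 TPM. H2afy2, a macroH2A gene, was lowest of the list at 2.06 and 3.72 TPM. H2afx encodes H2A.X, the histone phosphorylated at DNA breaks, and was at 13.7 and 18.6 TPM.

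Of the genes that process or degrade histone messages, 12 of 13 reached 1 TPM in both libraries. Slbp, the stem-loop binding protein, was at 11.5 and 16.02 TPM, and Npat, the activator of histone gene transcription, at 3.05 and 4.76 TPM. Srrt, at 34.5 and 64.2 TPM, Sympk, at 26.5 and 39.4 TPM, and Cpsf3, at 14.7 and 27.1 TPM, were the highest by their means. Zfp473, a protein of the U7 snRNP pathway, was lowest at 0.15 and 0.29 TPM. All 7 histone chaperone genes reached 1 TPM in both libraries, led by the importin Ipo4 at 29.5 and 33.0 TPM, then Hat1 at 8.47 and 12.6 TPM and Asf1a at 7.26 and 12.9 TPM, with Asf1b lowest by its mean at 1.52 and 1.98 TPM.

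The 19 genes of the DNA replication and S phase list together had 122 and 171 TPM, beside 1133 and 2017 TPM for the 67 members. Pcna, the sliding clamp of DNA polymerases, was at 21.6 and 30.5 TPM and Mki67, a marker of dividing cells, at 4.84 and 5.39 TPM. After Pcna came Mcm2 and Mcm7 of the replicative helicase, at 10.7 and 16.01 TPM and at 9.81 and 16.1 TPM, and Cdc6, which loads that helicase, was lowest at 0.90 and 0.56 TPM. Of the 16 genes of this list at or above 100 counts on average, 13 had a log2 ratio below 0 and 3 above, with a median of -0.22. The 50 members had 24 below 0 and 26 above, with a median of 0.03. Cell type markers lay on both sides of 0. Below 0 were 5 of 5 adipocyte markers (median -0.32), 4 of 5 erythroid markers (median -0.15) and all 6 liver markers tested (median -7.57). Above 0 were 3 of 4 macrophage markers (median 0.17), 4 of 5 chromaffin cell markers (0.16) and 5 of 6 adrenal cortex markers (0.11). The 1 lymphocyte marker tested was also above 0 (0.25). The part of these cells in the S phase values was not tested. None of the 16 S phase genes, of the 11 replacement histone genes, of the 12 processing genes or of the 5 chaperone genes tested was 2-fold or more apart. In bulk RNA, fewer dividing cells and less RNA per dividing cell cannot be told apart.

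The libraries themselves differed in ways that touch these values. The total of expected counts was 19366343 for the first and 33728646 for the second library, of which 36.3% and 66.1% fell on nuclear protein-coding genes (Lars2 left out), and the members received 10795 and 35952. The tissue label was matched by all 6 adrenal cortex markers (44479 and 49998 coding TPM summed) and all 5 markers of chromaffin cells (2987 and 3366 coding TPM). The 7 liver markers summed to 994 coding TPM in replicate 1 and 11.6 in replicate 2. Summed coding TPM was 3648 and 2761 for adipocyte markers, 7336 and 6173 for erythroid markers, 90.2 and 91.5 for macrophage markers and 7.35 and 9.55 for lymphocyte markers, and no marker was at 0 in both libraries. The part of these other cells in the histone levels was not tested. Whether counting used strand is not stated. All 18 H2a members overlap a gene annotated on the opposite strand, mostly miRNA entries with at most 4 counts in a library. Exceptions were the antisense genes over the Hist2h2aa copies, Gm20632 with 27.6 and 199 counts and Gm20633 with 31.2 and 218. In all, 7 members overlap a gene on the same strand, among them Hist2h2aa1 with Gm20634, which had 329 and 815 counts.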

How the data were processed

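Per the labels, total RNA of 2 adrenal gland libraries was sequenced. Per the notes deposited with the files, each library was quantified alone against mm10 and GENCODE M21; the program is not given in the sources used here. Expected counts and TPM are the authors' deposited estimates. Each transcript's percent of its gene is given too, per the file headers. A second deposited table, made from the reads without the alignments, was summed per gene. TMM used counts rounded to whole numbers (edgeR 4.0.16, R 4.3.3); DESeq2 1.42.0 gave an alternative. The ratio calculation was checked on simulated counts with known changes. Python 3.11.15, pandas 2.3.3, scipy 1.17.1, Biopython 1.88 and matplotlib 3.10.9 were used. Promoter windows came from RefSeq (GRCm38.p6).

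With 1 group there was no test. The prior was scaled to each library, and levels compare genes as TPM. Named were the 4 highest genes of each type, members 2-fold apart, the 8 members most different between the quantifications and the testis list; of other lists, the 3 highest and the lowest, with Slbp, Npat, Pcna and Mki67. H2afx, pair members, copies of identical sequence, Hist1h1d, Hist1h2be, Hist1h4b, Hist2h3c1, Hist2h4 and Hist4h4 were named besides, after their values were seen. Members and lists were chosen with earlier results of these data known. Alternatives changed the scaling, thresholds, prior, gene set, quantification and library. The members' 10795 and 35952 counts set the precision.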

Additional observations from a re-analysis of the deposited data

Results flagged for a closer look

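Among genes with a member symbol that were left out as pseudogenes, 2 had counts above the 3 that a count of 0 allows. Hist1h2al, a processed pseudogene on chromosome 13 (51202727 to 51203065), outside both blocks of the Hist1 cluster, received 113.69 expected counts in replicate 1 and 350.53 in replicate 2, or 28.9 and 46.5 TPM. That level was above every H2a member but Hist2h2aa2 and Hist1h2ao in replicate 1, and above every H2a member but Hist2h2aa2 in replicate 2. Its posterior SD was 2.70 and 6.25 counts, and the second quantification gave it 0 counts in both libraries. Hist3h2bb-ps, on chromosome 11, received 10.76 counts in replicate 2 and 1 in replicate 1. The source of these reads was not tested.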

How the results depend on the processing

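Summed TPM moved with the scale: as coding TPM the means were 533 (H1), 1311 (H2a), 1187 (H2b), 811 (H3) and 1878 (H4). In the second quantification, whose TPM has another scale, the mean TPM was 211 (H1), 726 (H2a) and 344 (H3). Its mean coding TPM was 457 (H1), 1590 (H2a), 900 (H2b), 756 (H3) and 1271 (H4). In the gene table, with the Hist1 cluster alone H2a was at 150.8 TPM. The members' share of coding TPM was 0.497% in the second quantification. By total counts the log2 ratios were 1.01 (H1), 1.10 (H2a), 0.81 (H2b), 0.76 (H3) and 0.96 (H4). By spike-ins they were 0.25, 0.34, 0.06, 0.00 and 0.20 in that order. In the second quantification they were 0.02 (H2a), -0.19 (H2b), -0.27 (H3) and -0.55 (H4). The signs of H2b and H3 under total counts and spike-ins follow from a shift of all genes (medians 0.91 and 0.16 against 0.03). The other sign that turned was that of H4 in the second quantification. Members 2-fold higher in replicate 2 numbered 4 of 63 at a mean count of at least 10, 5 of 67 with no minimum, 22 of 50 by total counts, 3 of 50 by spike-ins (2.71%, 5.002%, 35.8% and 0.693% of all genes) and 0 of 47 with identical coding sequences summed. Those lower numbered 2 of 67 with no minimum and 0 of 50 by total counts (4.02% and 0.312% of all genes). In the gene table with identical sequences summed they numbered 0 of 47. In the second quantification, without such summing, they numbered 3 of 35 (0.809% of all genes). Leaving out replicate 1 or 2 gave 106 to 187 TPM (H1), 249.5 to 479 (H2a), 240.2 to 410.2 (H2b), 169 to 272 (H3) and 368 to 668 (H4), a share of 0.548% to 0.596% and 59 to 63 genes at 1 TPM. The cause of these changes was not tested. By coding TPM 7 members were 2-fold higher in the second quantification, not 18. Of all alternatives, 64 kept their value within its error or, for counts, within 1.5 times, 29 moved and 5 reversed. Coding TPM between quantifications, summing identical sequences, and leaving out members with a posterior SD of 20% or more (log2 ratios within the intervals of all members), were chosen after seeing the data. No paired analysis was possible because there is 1 group. Low counts limit the single copies, and 17 members fell under a mean count of 100.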
